A study of Mus musculus with 16 samples.

Results

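Mouse alveolar macrophages that had been grown outside the lung for a known number of passages were set against cells taken directly from the airspace. The cultures came from 2 lavage pools, each sampled at 2 passages. Those of pool 1 were passages 8 and 13, and those of pool 2 were passages 5 and 10. These 4 libraries and the 3 libraries of bronchoalveolar lavage cells (BALF) of mice 1, 2 and 4 were chosen by their labels and make up 7 of the 16 libraries of the study. All animals were C57BL/6 wild type, and no treatment was named for any group. Both passages of a pool descend from the same cells, so their counts were summed and each group comparison rests on 2 pools against 3 mice. The study also held alveolar macrophage cultures of single mice (mexAM, 3 libraries, passage not given in the sources used here), peritoneal lavage cells (PLF, 3) and bone marrow derived macrophages (BMDM, 3). PLF and BMDM were part of the fit, where they bear on which genes were tested, the scaling and the estimate of the spread, and they are not described here. The sources used here do not give the number of mice in a pool, the culture medium, the ages of the animals or whether the pools came from separate animals. The p-values therefore measure only the spread between these samples.

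Alveolar macrophages are the resident phagocytes of the airspace. They clear surfactant lipid, inhaled particles and spent cells, and they can renew themselves in place. Their identity depends on GM-CSF, which signals through the receptor subunits Csf2ra and Csf2rb to the transcription factor STAT5 and to PPARG, and on TGF-beta. Known features are the lectin SIGLEC-F, carbonic anhydrase 4, the integrin CD11c (Itgax) and high expression of lipid handling genes.

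Several gene groups below have well-studied promoter elements, and the stretch before the gene start is shown for 1 or 2 members of each so that a reader can see the element beside the expression data. The sequences are from RefSeq on GRCm38.p6, 5' to 3' on the strand of the gene, with the element in capitals, and both strands were searched in the 250 bases before the start. Stretches that an exon of the same gene covers in GENCODE M21 are left out, and for Csn2, whose element lies in such an exon of 1 transcript, 30 bases are shown. Hspa1a (chr17:34972157-34972406, minus strand) and Hspa1b (chr17:34959239-34959488, minus strand), 2 neighbouring heat shock protein genes, carry GAANNTTC, a pair of heat shock factor half-sites. Txnrd1 (chr10:82858956-82859178, plus strand), which encodes thioredoxin reductase, carries TGACNNNGC, the core of the antioxidant element, read on the other strand, and an exon of the noncoding gene Gm38560 lies in the same window on the minus strand. Hmgcs1 (chr13:119690101-119690350, plus strand), an early enzyme of cholesterol synthesis, carries TCACNCCAC, an element of the sterol-responsive SREBP factors. Csn2 (chr5:87699499-87699528, minus strand), which encodes beta-casein, a milk protein and a known STAT5 target, carries TTCNNNGAA. Cdk1 (chr10:69352939-69353162, minus strand), the kinase that drives entry into mitosis, carries TTTGAA, the cell cycle element. TTTGAA occurs there at -71 and at -15 from the start, and only the copy at -71 is shown. The copy at -15 lies in the stretch that an exon of Cdk1 covers.
Hspa1a: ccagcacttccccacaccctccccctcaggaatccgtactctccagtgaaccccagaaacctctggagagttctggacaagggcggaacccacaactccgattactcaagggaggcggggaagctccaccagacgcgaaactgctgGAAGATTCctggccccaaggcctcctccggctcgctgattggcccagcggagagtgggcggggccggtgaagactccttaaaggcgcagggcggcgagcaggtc
Hspa1b: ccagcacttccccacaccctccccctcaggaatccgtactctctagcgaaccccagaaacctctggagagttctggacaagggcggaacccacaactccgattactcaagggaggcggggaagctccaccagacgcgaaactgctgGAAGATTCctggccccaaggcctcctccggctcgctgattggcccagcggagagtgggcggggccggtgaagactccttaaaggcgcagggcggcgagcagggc
Txnrd1: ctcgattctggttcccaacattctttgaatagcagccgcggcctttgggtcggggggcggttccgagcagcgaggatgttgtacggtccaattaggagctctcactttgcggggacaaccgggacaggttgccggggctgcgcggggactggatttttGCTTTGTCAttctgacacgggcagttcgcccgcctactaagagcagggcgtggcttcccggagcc
Hmgcs1: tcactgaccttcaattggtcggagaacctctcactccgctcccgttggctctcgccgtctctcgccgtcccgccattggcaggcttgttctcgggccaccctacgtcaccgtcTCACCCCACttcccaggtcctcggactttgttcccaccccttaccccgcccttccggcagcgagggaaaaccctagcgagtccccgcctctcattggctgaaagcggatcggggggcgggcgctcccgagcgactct
Csn2: tcacgtagacTTCTTGGAAttgaagggact
Cdk1: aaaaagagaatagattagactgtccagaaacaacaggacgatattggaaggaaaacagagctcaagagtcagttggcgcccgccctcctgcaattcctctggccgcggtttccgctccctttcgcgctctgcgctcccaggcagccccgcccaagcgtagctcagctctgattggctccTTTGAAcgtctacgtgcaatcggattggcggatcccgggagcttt
The Hspa1a and Hspa1b windows differ at 3 of 250 bases. A promoter was found in the RefSeq table for 14 of the 19 heat shock chaperone genes, and GAANNTTC was in 7 of them (50%), against 7.73% of all 27025 genes with a window. TGACNNNGC was in 7 of 23 promoters of the antioxidant list (30.4%), against 11.5% of all, and TCACNCCAC in 1 of 17 of the cholesterol synthesis list (5.88%), against 1.22%. TTCNNNGAA was in 3 of 12 promoters of the GM-CSF and STAT5 list (25%), against 8.13%, and TTTGAA in 8 of 20 of the mitosis list (40%), against 18.3%. A match describes the letters in these windows only.

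The BALF libraries held 1664635, 985582 and 1295736 counts in genes, and the pool libraries held 827791 to 2884679. In the summed pools 58.9% of the counts of pool 1 and 77.7% of those of pool 2 came from the deeper, later passage. Counted reads outside genes made up 19.9% to 21.4% in BALF and 10.6% to 12.4% in the pools, and the mitochondrial genome took 12.1% to 16.3% and 12.4% to 16.4%. Markers of other cells were measured in both groups. Cd79a, Cd3d, Cd3g, Epx, Prg2 and Elane, defining genes of B cells, T cells, eosinophils and neutrophils, had 0 counts in all 7 libraries. Other members of these lists had counts. Levels are in CPM, counts scaled to a common library total with TMM factors. The B cell list of 12 genes summed to 63.7 to 109 CPM in BALF and 82.5 to 129 CPM in the pools, with 0 members called. The neutrophil list of 13 genes summed to 140 to 166 CPM in BALF and 302 to 500 CPM in the pools. The erythroid and platelet list of 11 genes summed to 45.7 to 750 CPM in BALF and to 1.91 to 23.5 CPM in the pools. The haemoglobin gene Hbb-bs stood at 23.5, 296 and 490 CPM in BALF of mice 1, 2 and 4 and at 0.635 to 12.4 CPM in the pools. Among 17 lung epithelium genes the club cell gene Scgb1a1 stood at 0.692, 14.6 and 26.9 CPM in BALF and had 0 counts in all 4 pool libraries, at least 27.3-fold lower (with 3 counts taken as the limit for the whole group), a call lost in 6 of 16 alternatives. Of the 4 epithelium genes tested 3 were called lower (Scgb1a1, Epcam and Napsa) and 1 higher (Cdh1), and 13 of the 17 had 0 counts in the pools, against 3 in BALF. Epcam, an epithelial adhesion protein, was at 40.8, 43.9 and 35.9 CPM in BALF and at 0.00 to 1.24 CPM in the pools, 138 counts against 3, a ratio of 85.7 (95% exact binomial interval 28.7 to 420, counting error only). Cdh1, E-cadherin, was at 23.5 to 40.4 CPM in BALF and 82.8 to 121 CPM in the pools, and it held nearly all of the list's sum there (88.9 to 127 CPM, against 111 to 149 CPM in BALF). The part of B cells, neutrophils, red cells and epithelial cells in the changes below was not tested. With BALF of mouse 1 alone, the BALF library lowest in Hbb-bs and Scgb1a1, 1 erythroid gene was called lower in place of 5, and counts in that setting stand beside the lists below where they moved by over 1.5 times. In bulk RNA, fewer cells of a type and less RNA per cell cannot be told apart.

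Across the transcriptome 2757 of 10602 genes tested (26%) differed between the pools and BALF at an adjusted p under 0.05, 1446 higher (13.6%) and 1311 lower (12.4%) in the pools, and 2037 of them by at least 2-fold. Here and below adjusted p-values are from edgeR's quasi-likelihood F test with Benjamini-Hochberg adjustment over all genes, changes are log2 fold changes ± standard error, and a gene is called where its adjusted p was under 0.05. The median change over all genes was 0.00. The shares of 13.6% higher and 12.4% lower are the background for the list counts below. When library totals alone set the scale, the median was 0.20 and 67.7% of 2966 calls were higher, against 52.4% of calls with TMM. With BALF of mouse 1 alone as the control 1403 genes were called, and without pool 1 or pool 2 the count was 1660 or 1604. The levels of all 4 pool libraries and all 3 BALF libraries did not overlap for 3764 genes tested (35.5%). Values per library are given below in the order mice 1, 2 and 4 for BALF, passages 8 and 13 for pool 1, and passages 5 and 10 for pool 2. For the same genes mexAM against the same 3 BALF libraries gave 3314 calls (31.3%), and since the comparisons share BALF their values are only set side by side.

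**Figure D1:**
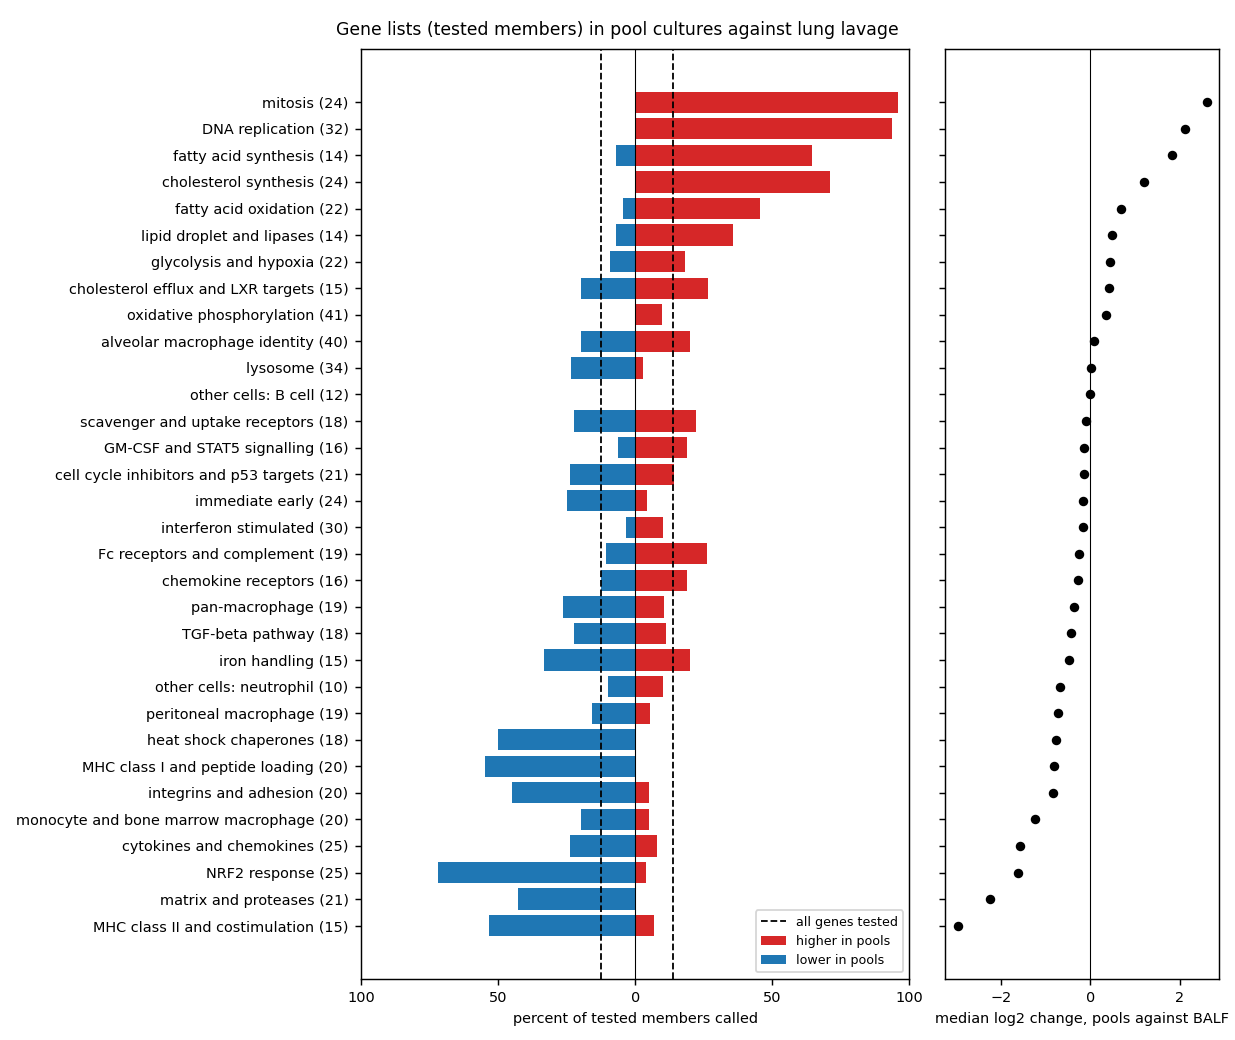
Gene lists with at least 10 tested members (number in brackets), pool cultures against BALF. Left, percent of tested members called higher (red, to the right) or lower (blue, to the left), with dashed lines at the 13.6% and 12.4% of all genes tested. Right, the median log2 change of the tested members. Mitosis and DNA replication lie at the top, with 23 of 24 and 30 of 32 members higher, and MHC class II and matrix genes at the bottom.

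Alveolar macrophage identity genes changed in both directions, and most of them were not called. Of 40 identity genes tested, 8 were called higher and 8 lower in the pools, with a median change of 0.07. Both shares were above those of all genes tested, 13.6% higher and 12.4% lower. All 40 had counts in both groups. The lectin gene Siglecf stood at 357, 323 and 250 CPM in BALF, 349 and 434 CPM in pool 1 and 697 and 620 CPM in pool 2, a difference of 0.77 ± 0.29 that was not called (adjusted p = 0.058) though it passed in 6 of 19 alternatives. Pool 1 at passage 8 lay within the BALF range, and the other pool libraries lay above it. Pparg, the lipid-sensing transcription factor, was at 116, 65.3 and 87.1 CPM in BALF, 55.6 and 137 CPM in pool 1 and 103 and 115 CPM in pool 2, with overlapping groups and a difference of 0.30 ± 0.51. Bhlhe41, a transcription factor that supports self-renewal of these cells, ranged from 798 to 904 CPM in BALF and from 765 to 856 CPM in the pools (-0.07 ± 0.19, adjusted p = 0.83).

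Some surface and secreted markers were lower. Itgax, which encodes CD11c, fell from 572, 536 and 527 CPM in BALF to 44.1 and 60.3 CPM in pool 1 and 101 and 39.1 CPM in pool 2, a change of -3.32 ± 0.57 (adjusted p = 0.00076). Every pool library lay below every BALF library. Chil3, a chitinase-like protein secreted by alveolar macrophages, fell from 12063, 9040 and 7622 CPM to 2078 and 2746 CPM in pool 1 and 2018 and 1662 CPM in pool 2 (-2.15 ± 0.34), again without overlap. Cd200r1, an inhibitory receptor, fell by 2.28 ± 0.30 on the log2 scale, and Axl, a receptor for dying cells, fell by 1.96 ± 0.34.

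Higher identity genes were led by Serpinb1a, a protease inhibitor, at 50.5, 45.0 and 59.2 CPM in BALF, 240 and 310 CPM in pool 1 and 478 and 350 CPM in pool 2 (2.71 ± 0.30, adjusted p = 3.1e-06). The fatty acid binding protein gene Fabp1 rose from 339, 273 and 267 CPM to 831 and 1150 CPM in pool 1 and 416 and 1016 CPM in pool 2 (1.74 ± 0.33), and Abcg1, a cholesterol exporter, rose by 1.37 ± 0.28. Neither was called with BALF of mouse 1 alone. Car4 was at 347, 361 and 334 CPM in BALF, 565 and 433 CPM in pool 1 and 970 and 596 CPM in pool 2. The groups did not overlap, and its change of 0.78 ± 0.26 (adjusted p = 0.032) was not called in 9 of 19 alternatives. With BALF of mouse 1 alone 1 identity gene was called higher and 5 lower, and 12 were called higher when only BALF and the pools were fitted.

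**Figure D2:**
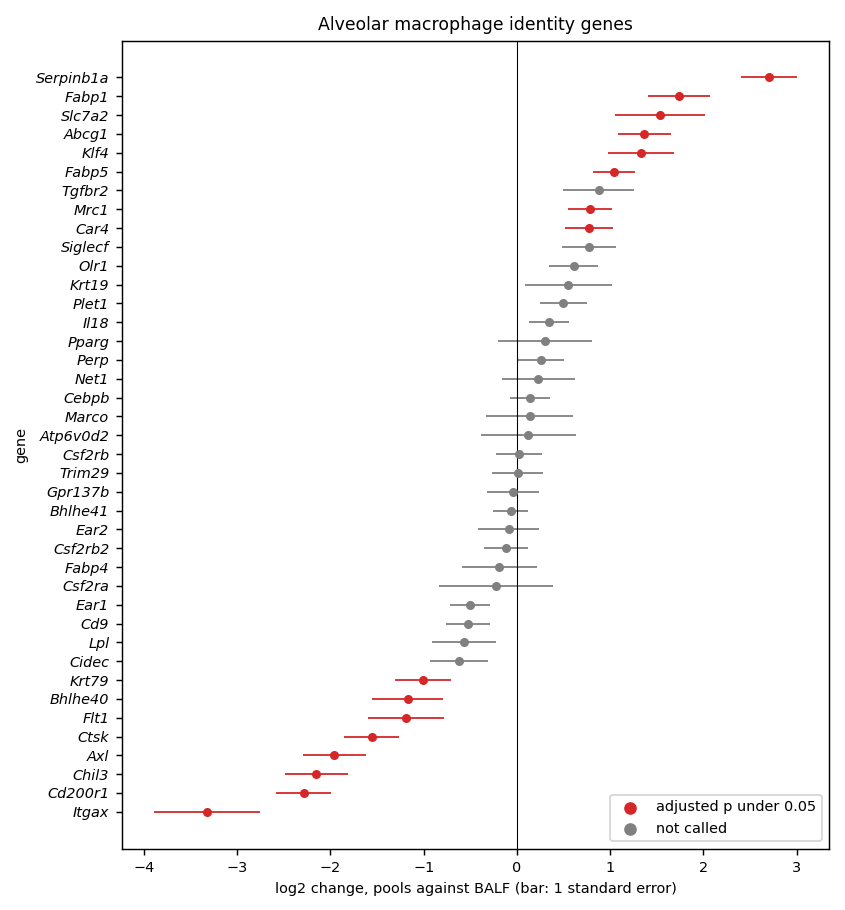
Log2 change of the 40 alveolar macrophage identity genes in the pool cultures against BALF (points) with 1 standard error (bars), in red where the adjusted p was under 0.05. The 8 called lower genes run from Itgax to Krt79, the 8 called higher genes from Car4 to Serpinb1a, and 24 genes in between were not called.

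Marco, Fabp4, Ear1 and Ear2 were not called. Marco, a scavenger receptor for particles, was at 319, 352 and 482 CPM in BALF, 1008 and 412 CPM in pool 1 and 471 and 95.2 CPM in pool 2. The pool libraries covered a wider range than BALF, and the difference of 0.14 ± 0.47 changed sign in several alternatives. Fabp4 (-0.19 ± 0.40), Ear1 (-0.51 ± 0.21) and Ear2 (-0.09 ± 0.33) had small differences, and of these Ear1 was called in 3 of 19 alternatives.

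Among general macrophage genes 2 of 19 tested were called higher and 5 lower, with a median of -0.38. Csf1r, the receptor for M-CSF, fell from 107, 90.1 and 178 CPM in BALF to 40.2 and 33.7 CPM in pool 1 and 39.5 and 44.4 CPM in pool 2 (-1.61 ± 0.32). Adgre1, which encodes F4/80, was at 202 to 272 CPM in BALF and 152 to 239 CPM in the pools and was not called (-0.17 ± 0.20, adjusted p = 0.59). Cd14, a co-receptor for bacterial lipopolysaccharide, fell by 1.79 ± 0.34, with 133 to 153 CPM in BALF and 11.5 to 54.6 CPM in the pools.

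Itgam, which encodes the integrin CD11b, was low in all but 1 library. It was at 5.53, 6.76 and 10.8 CPM in BALF, 11.5 and 71.8 CPM in pool 1 and 9.88 and 13.4 CPM in pool 2, so that pool 1 at passage 13 stood apart and pool 2 at passage 5 lay within the BALF range. Its change of 1.99 ± 0.47 (adjusted p = 0.0045) was not called without pool 1, without pool 1 at passage 13, in the earlier passages, or when only BALF and the pools were fitted. Maf, a transcription factor that restrains macrophage self-renewal, was at 4.49 to 6.23 CPM in BALF and 9.88 to 28.7 CPM in the pools (1.94 ± 0.44, not called in 3 of 19 alternatives). Gata6, the defining factor of resident peritoneal macrophages, had 0 counts in all 7 libraries.

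**Figure D3:**
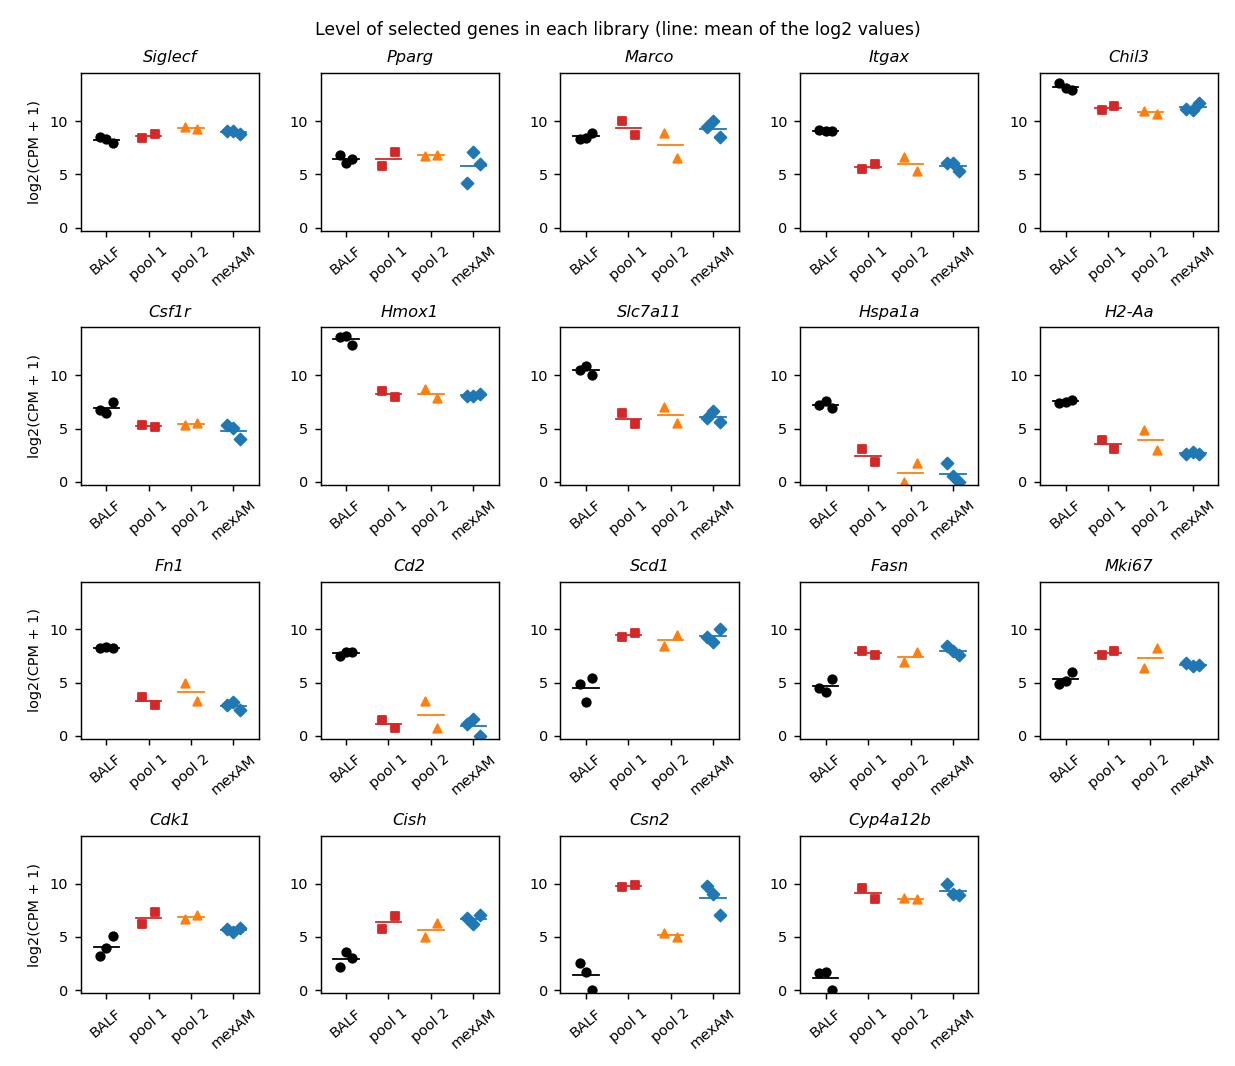
Level of selected genes as log2(CPM + 1) in each library, with lines at the mean of the log2 values, for BALF (black), pool 1 (red), pool 2 (orange) and mexAM (blue). Siglecf, Pparg and Marco overlap between BALF and the pools, Hmox1, Slc7a11, Hspa1a, H2-Aa, Fn1 and Cd2 are lower in all 4 pool libraries, and Scd1, Fasn, Mki67, Cish, Csn2 and Cyp4a12b are higher.

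Genes of the dividing cell were higher in the pools almost without exception. Of 32 DNA replication genes 30 were called higher and 0 lower, with a median change of 2.12, and of 24 mitosis genes 23 were called higher and 0 lower, with a median of 2.62. Mki67, the classical marker of cycling cells, rose from 28.4, 34.9 and 64.6 CPM in BALF to 191 and 254 CPM in pool 1 and 81.5 and 313 CPM in pool 2 (2.57 ± 0.29, adjusted p = 3.1e-06). All 4 pool libraries lay above all BALF libraries, and pool 2 at passage 5 was the lowest of them. Cdk1, whose promoter is shown above, rose from 8.30, 14.6 and 32.3 CPM to 72.8 and 163 CPM in pool 1 and 103 and 135 CPM in pool 2 (2.85 ± 0.35). The largest change of the list was in Bub1, a spindle checkpoint kinase, from 4.84, 3.38 and 1.80 CPM to 50.8 and 122 CPM in pool 1 and 53.1 and 104 CPM in pool 2 (4.76 ± 0.52).

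Replication genes moved with them. Mcm6, a subunit of the replicative helicase, rose from 15.9, 6.76 and 16.2 CPM to 119 and 115 CPM in pool 1 and 69.2 and 72.5 CPM in pool 2 (2.84 ± 0.29). Tk1, thymidine kinase, rose by 3.08 ± 0.54, and Cdc6, which loads the helicase, rose by 3.63 ± 0.51 from at most 1.38 CPM in BALF. Pcna, the sliding clamp, was not called, with 135 to 188 CPM in BALF and 140 to 182 CPM in the pools (-0.04 ± 0.33). With BALF of mouse 1 alone 19 replication genes were called higher. For mexAM against BALF the counts were 19 of 32 replication genes and 15 of 24 mitosis genes called higher. Compared directly, pools against mexAM, 0 replication genes were called in either direction, with a list median of 0.75. There 8 mitosis genes were called higher in the pools, with a list median of 1.37. The median over all genes was 0 in that comparison.

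Of 21 cell cycle inhibitors and p53 targets, 3 were called higher and 5 lower. The higher share was near the 13.6% of all genes, and the lower share was above the 12.4% of all genes. Cdkn2b, an inhibitor of G1 kinases that TGF-beta can induce, fell from 27.0, 20.3 and 18.9 CPM to 2.87 and 2.54 CPM in pool 1 and 1.24 and 1.67 CPM in pool 2 (-3.37 ± 0.48). The neighbouring inhibitor gene Cdkn2a rose from 4.84, 1.13 and 4.49 CPM to 24.9 and 14 CPM in pool 1 and 45.7 and 23.7 CPM in pool 2 (2.67 ± 0.55). Neither gene overlapped between the groups, and Cdkn2a was not called in 1 of 19 alternatives.

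**Figure D4:**
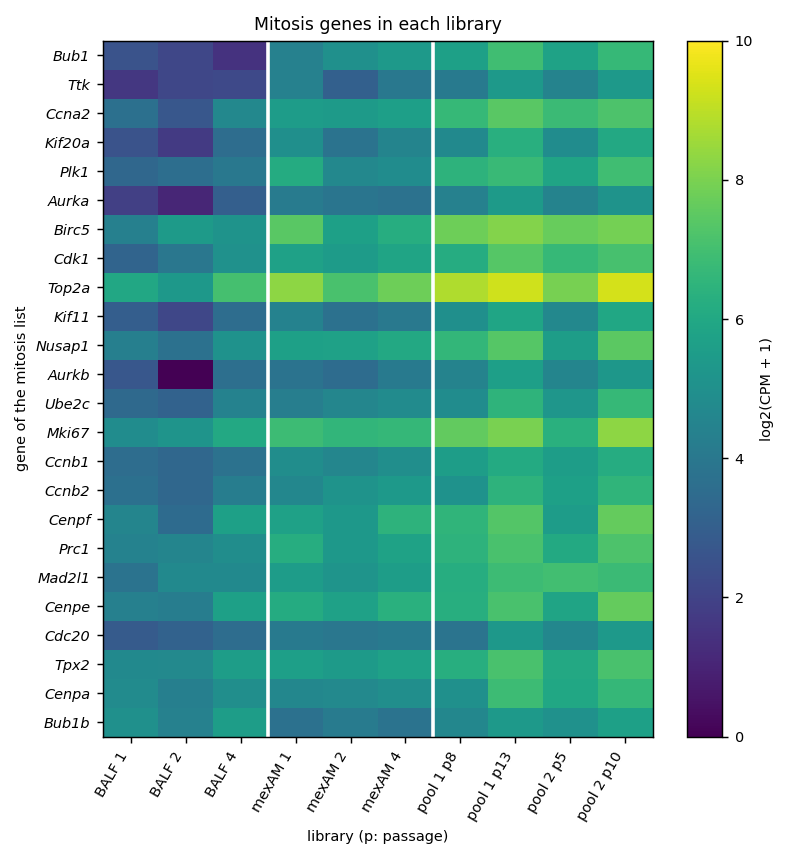
Level of the 24 mitosis genes as log2(CPM + 1) (colour) in the 3 BALF, 3 mexAM and 4 pool libraries (columns, p for passage), ordered by their change against BALF. For most genes the brightest column is pool 1 at passage 13 or pool 2 at passage 10, and the darkest a BALF library.

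Lipid synthesis genes formed the other large block of higher genes. Of 24 cholesterol synthesis genes 17 were called higher and 0 lower, with a median of 1.21. Hmgcs1, named here for the element in its promoter, rose from 264, 302 and 327 CPM in BALF to 1660 and 1034 CPM in pool 1 and 1266 and 1232 CPM in pool 2 (2.12 ± 0.22). Tm7sf2, a sterol reductase, rose by 3.61 ± 0.49, and Lss, which closes the sterol ring, rose by 2.46 ± 0.26.

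Of 14 fatty acid synthesis genes 9 were called higher and 1 lower, with a median of 1.84. Scd1, a desaturase that makes oleate, rose from 27.7, 7.88 and 42.2 CPM to 626 and 839 CPM in pool 1 and 346 and 720 CPM in pool 2 (4.74 ± 0.45). Fasn, fatty acid synthase, rose from 22.1, 16.9 and 38.6 CPM to 249 and 193 CPM in pool 1 and 126 and 241 CPM in pool 2 (3.08 ± 0.28). No pool library overlapped BALF for either gene. Acsl3, which activates fatty acids at the lipid droplet, rose by 4.94 ± 0.24. Me1, malic enzyme, which is also an antioxidant response gene, was the 1 lower member (-1.62). In 10 of 20 alternatives 0 members of the list were called lower.

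Of 22 fatty acid oxidation genes 10 were called higher and 1 lower, with a median of 0.68, and 3 were called higher with BALF of mouse 1 alone. Acaa1b, a peroxisomal thiolase, rose from 234, 305 and 153 CPM to 1862 and 1119 CPM in pool 1 and 1034 and 1293 CPM in pool 2 (2.56 ± 0.26). Ehhadh, another peroxisomal enzyme, rose by 3.14 ± 0.49. Among 14 lipid droplet genes and lipases 5 were called higher and 1 lower, led by Plin1, a droplet coat protein, at 1.80 to 2.77 CPM in BALF and 38.3 to 69.0 CPM in the pools (4.48 ± 0.36), and with BALF of mouse 1 alone 3 of the list were called higher. Lpl, lipoprotein lipase, stayed among the most abundant transcripts of both groups, with 9264 to 11348 CPM in BALF and 6386 to 6916 CPM in the pools, and was not called (-0.57 ± 0.35, adjusted p = 0.25). Of 41 nuclear genes of oxidative phosphorylation 4 were called higher, with a median of 0.34, and the count was 13 when library totals alone set the scale and 0 with BALF of mouse 1 alone. The share of 4 in 41 was below the 13.6% of all genes. For mexAM against BALF 21 of the 41 were called higher, with a median of 0.56. Compared directly, pools against mexAM, 0 of the 41 were called in either direction, with a median of -0.30.

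Genes of the antioxidant response governed by NRF2 were lower. Of 25 list members tested 18 were called lower and 1 higher, with a median of -1.62, and 15 to 19 were called lower in the alternatives. Hmox1, heme oxygenase, fell from 12224, 12895 and 7426 CPM in BALF to 364 and 252 CPM in pool 1 and 410 and 234 CPM in pool 2 (-5.22 ± 0.44, adjusted p = 2.0e-07). Slc7a11, the cystine importer, fell from 1468, 1931 and 1067 CPM to 85.3 and 41.3 CPM in pool 1 and 133 and 44.8 CPM in pool 2 (-4.57 ± 0.33). The pool libraries lay far below BALF for both, and within each pool the earlier passage held the higher value. Txnrd1, whose promoter is shown above, fell from 1149, 1151 and 1443 CPM to 203 and 123 CPM in pool 1 and 159 and 141 CPM in pool 2 (-3.02 ± 0.35).

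Srxn1, sulfiredoxin, fell by 4.67 ± 0.48, and Nqo1, a quinone reductase, fell by 4.29 ± 0.49. The gene of the factor itself, Nfe2l2, was lower by 1.58 on the log2 scale (472 CPM in BALF against 154 CPM in the pools, group means). Blvra, biliverdin reductase, was the 1 member called higher (0.55), and in 10 of 20 alternatives 0 members were called higher. Iron genes overlapped with this list. Slc40a1, the iron exporter ferroportin, fell from 139, 106 and 125 CPM to 6.71 and 6.35 CPM in pool 1 and 4.94 and 5.68 CPM in pool 2 (-4.33 ± 0.52). Tfrc, the transferrin receptor that imports iron, went the other way, from 15.2, 15.8 and 22.4 CPM to 180 and 114 CPM in pool 1 and 112 and 82.9 CPM in pool 2 (2.72 ± 0.43). In all, 3 of 15 iron genes were called higher and 5 lower, against 13.6% and 12.4% of all genes.

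Heat shock chaperones were lower in part, with 9 of 18 genes called lower, 0 higher and a median of -0.79. Hspa1a stood at 145, 190 and 121 CPM in BALF, 7.66 and 2.54 CPM in pool 1 and 0.00 and 2.34 CPM in pool 2 (-5.58 ± 0.54), and Hspa1b at 282, 282 and 165 CPM in BALF, 1.92 and 6.35 CPM in pool 1 and 6.18 and 2.67 CPM in pool 2 (-5.89 ± 0.69). All pool values of both genes were below all BALF values. The genes are near-identical copies, so the split of reads between them is uncertain. Hsp90ab1, an abundant constitutive chaperone, fell by 0.90 ± 0.28. Leaving out pool 2 left 3 chaperone genes called lower, and leaving out BALF of mouse 4 gave 12.

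Of 24 immediate early genes, which respond within minutes to signals, 6 were called lower and 1 higher. The lower share was above the 12.4% of all genes, and the higher share was below the 13.6%. Dusp1, a phosphatase of MAP kinases, was at 835, 1053 and 634 CPM in BALF, 47.9 and 146 CPM in pool 1 and 115 and 270 CPM in pool 2 (-2.25 ± 0.47), and Atf3, a stress transcription factor, fell by 1.68 ± 0.32. Fos was at 309 CPM in BALF and 375 CPM in the pools (group means) and was not called (0.31).

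Antigen presentation genes were called lower in part. Of 15 MHC class II and costimulation genes 8 were called lower and 1 higher, with a median of -2.98, or -3.23 without members too low for a fold and with Cd80, at 0 counts in the pools, set to its bound. H2-Aa, a class II chain, fell from 174, 182 and 202 CPM in BALF to 14.4 and 7.62 CPM in pool 1 and 28.4 and 7.02 CPM in pool 2 (-4.04 ± 0.45). Cd74, the invariant chain, fell from 116, 110 and 169 CPM to 9.58 and 12.7 CPM in pool 1 and 4.94 and 5.01 CPM in pool 2 (-4.01 ± 0.57), and Cd86, a costimulatory ligand, fell by 4.44 ± 0.54. No pool library reached the BALF range for any of these genes. The dendritic cell list of 12 genes moved too, from 135 to 148 CPM in BALF to 11 to 22.2 CPM in the pools, of which Irf8, a factor that macrophages also use, held most (123, 141 and 127 CPM in BALF, 5.68 to 17.3 CPM in the pools). Of 6 members tested 2 were called lower and 0 higher. Their median was -0.12, or -3.93 without 3 members too low for a fold. Of the defining dendritic cell genes Cd209a, Siglech and Itgae had 0 counts in both groups. The part of dendritic cells in the class II change was not tested.

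Of 20 MHC class I and peptide loading genes 11 were called lower and 0 higher, with a median of -0.83, and the count was 3 without pool 1 and 3 with BALF of mouse 1 alone. B2m, the shared light chain, was at 4529, 5218 and 3632 CPM in BALF, 1997 and 2325 CPM in pool 1 and 2361 and 2504 CPM in pool 2 (-0.90 ± 0.24, not called in 2 of 19 alternatives). Psmb8, an immunoproteasome subunit, fell by 1.55 ± 0.30. Reads of class I genes can be split among near-identical relatives, so single members are uncertain. Among 30 interferon stimulated genes 3 were called higher and 1 lower, and 1 was called higher with BALF of mouse 1 alone. In the main fit both shares were below the 13.6% and 12.4% of all genes. The gene called lower was Ifi204, a DNA sensor, at 28.7 to 65.0 CPM in BALF and 0.00 to 3.71 CPM in the pools (-5.50 ± 0.55). Gbp7 and Ifi27l2a were among the higher genes, of which Ifi27l2a was not called with BALF of mouse 1 alone.

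Some adhesion and matrix genes were lower. Of the tested members, 10 of 20 adhesion genes and 12 of 21 matrix genes were not called. Of all genes tested 12.4% were called lower. Cd2, an adhesion receptor best known from lymphocytes, fell from 178, 235 and 237 CPM in BALF to 1.92 and 0.635 CPM in pool 1 and 8.65 and 0.668 CPM in pool 2 (-6.79 ± 0.40, adjusted p = 2.6e-09). T and NK cell genes were near 0 in both groups, with a summed list level of 1.13 to 2.69 CPM in BALF. Of 20 integrin and adhesion genes 9 were called lower and 1 higher, with a median of -0.85 (-1.01 without 1 member too low for a fold and with 1 member at 0 set to its bound), and the lower count was 4 without pool 2 and 4 with BALF of mouse 1 alone. Of 21 matrix and protease genes 9 were called lower and 0 higher, with a median of -2.25. Fn1, fibronectin, fell from 309, 319 and 308 CPM to 11.5 and 6.35 CPM in pool 1 and 29.6 and 9.02 CPM in pool 2 (-4.77 ± 0.38). Timp2, a metalloprotease inhibitor, fell by 4.88 ± 0.31, and Mmp19, a metalloprotease, by 3.89 ± 0.34. For Cd2 and Fn1 pool 2 at passage 5 held the highest pool value.

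Of 18 scavenger and uptake receptor genes 4 were called higher and 4 lower, and 2 were called higher with BALF of mouse 1 alone. In the main fit both shares were above the 13.6% and 12.4% of all genes. The fungal lectin receptors Clec4n and Clec7a fell. Clec4n (dectin-2) went from 2098, 2704 and 1826 CPM in BALF to 159 and 69.9 CPM in pool 1 and 330 and 92.6 CPM in pool 2 (-4.12 ± 0.54), and Clec7a (dectin-1) changed by -2.10 ± 0.30. Mfge8, a bridging protein for dying cells, rose from 12.5, 14.6 and 15.3 CPM to 199 and 279 CPM in pool 1 and 147 and 185 CPM in pool 2 (3.95 ± 0.46). Mrc1, the mannose receptor, was at 986 to 1059 CPM in BALF and 1277 to 1954 CPM in the pools, and its change of 0.78 ± 0.24 was not called in 7 of 19 alternatives. Of 34 lysosome genes 1 was called higher and 8 lower. Ctss, the protease cathepsin S, fell by 2.21 ± 0.23, and so did Mitf (-2.68 ± 0.23) and Tfe3 (-1.42 ± 0.22), 2 related transcription factors of lysosome genes.

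In the GM-CSF and STAT5 list the share called was near that of all genes, and the receptor genes were not called. Csf2rb, the signalling subunit, was at 362 to 557 CPM in BALF and 341 to 548 CPM in the pools (0.02 ± 0.25, adjusted p = 0.98). Cish, a feedback inhibitor that STAT5 induces, rose from 3.46, 11.3 and 7.18 CPM to 53.6 and 126 CPM in pool 1 and 30.9 and 80.2 CPM in pool 2 (3.63 ± 0.47). All pool values exceeded all BALF values. In the list of 16 genes 3 were called higher (Cish, Csn2 and Ccnd2) and 1 lower (Osm), with a median of -0.14, and Ccnd2 was not called in 9 of 19 alternatives.

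Csn2 differed between the pools. It was at 4.84, 2.25 and 0.00 CPM in BALF, 798 and 910 CPM in pool 1 and 40.8 and 31.4 CPM in pool 2 (7.44 ± 1.40, adjusted p = 0.0019). Both pools lay above BALF, and both passages of pool 1 lay above both of pool 2. The mexAM cultures also spanned a wide range, at 870, 509 and 133 CPM for mice 1, 2 and 4. The change was not called when only BALF and the pools were fitted or with BALF of mouse 1 alone.

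Of 18 TGF-beta pathway genes 2 were called higher and 4 lower, with a median of -0.45, and with BALF of mouse 1 alone the counts were 1 and 2. Tgfbi, a matrix protein that TGF-beta induces, fell from 287, 286 and 522 CPM to 19.2 and 34.3 CPM in pool 1 and 21.0 and 17.0 CPM in pool 2 (-3.96 ± 0.57). Tgfbr1, a receptor subunit, fell by 1.26 ± 0.24, while its partner Tgfbr2 was not called (0.87 ± 0.38, adjusted p = 0.11). Smad6, an inhibitor of the related BMP branch, rose by 2.66 ± 0.54 (not called in 1 of 19 alternatives).

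Of 25 cytokine and chemokine genes 2 were called higher and 6 lower, with a median of -1.59 (-1.30 without 2 members too low for a fold and with 2 members at 0 set to their bound). With BALF of mouse 1 alone 1 was called higher and 3 lower. The summed level of the list was at 5957 to 6694 CPM in BALF and 13092 to 24270 CPM in the pools. A single chemokine gene, Ccl6, held most of that sum, with 5069, 4628 and 4402 CPM in BALF, 14923 and 11248 CPM in pool 1 and 21497 and 11442 CPM in pool 2 (1.52 ± 0.31). Its relative Ccl9 rose from 27.7, 16.9 and 59.2 CPM to 513 and 604 CPM in pool 1 and 1323 and 552 CPM in pool 2 (4.24 ± 0.56). Both were highest in pool 2 at passage 5. Tnf fell from 74.7, 101 and 137 CPM to 22.9 to 30.9 CPM in the pools (-1.96 ± 0.43, not called in 1 of 19 alternatives). Cxcr2, a chemokine receptor best known from neutrophils, rose from 6.23, 11.3 and 13.5 CPM to 112 to 252 CPM (4.12 ± 0.53). Of 10 neutrophil list genes tested Cxcr2 was the 1 called higher, and 1 was called lower. Elane, Mpo and Ly6g of that list had at most 1 count in either group. S100a8 was at 52.6 CPM in BALF and 164 CPM in the pools (group means) and was not called. Whether neutrophils were present was not tested.

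The largest increases by the fixed rule were in genes that were barely detected in BALF. Vipr2, a receptor for vasoactive intestinal peptide, had 0 counts in all 3 BALF libraries and stood at 47.9 and 60.3 CPM in pool 1 and 44.5 and 124 CPM in pool 2, at least 98.8-fold higher. A hydroxylase of fatty acids, Cyp4a12b, was at 2.08, 2.25 and 0.00 CPM in BALF, 757 and 384 CPM in pool 1 and 392 and 372 CPM in pool 2 (8.26 ± 0.46). Its copy Cyp4a12a showed 8.09 ± 0.60 and Cyp4a14, of the same family, 6.38 ± 0.45, and reads of the 2 near-identical Cyp4a12 genes may be split. Fabp7, a fatty acid binding protein known from brain, had 2 counts in BALF and 923 in the pools, a ratio of 248 with a 95% counting interval (exact binomial, counting error only) of 68.4 to 2049, and it was not called with BALF of mouse 1 alone. It was higher in both passages of pool 2 (133 and 235 CPM) than of pool 1 (25.9 and 54.0 CPM). Slc32a1, a vesicular transporter of inhibitory transmitters, had 1 count in BALF and 388 in the pools, a ratio of 208 (37.2 to 8250). Egln3, an oxygen-sensing hydroxylase, and Ffar2, a receptor for short chain fatty acids, rose by 6.5 ± 1.20 and 6.06 ± 0.41, and Egln3 was not called with BALF of mouse 1 alone.

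Among non-overlapping genes whose BALF level reached 50 CPM, the largest decreases, besides those named, were in Tacc2, Pdlim1, Lsr, Ms4a8a and Rftn1. Pdlim1, a cytoskeletal adaptor, went from 93.4, 107 and 87.1 CPM to 0.958 and 0.00 CPM in pool 1 and 4.94 and 1.00 CPM in pool 2 (-6.17 ± 0.46). Lsr, a lipoprotein receptor, fell by 5.70 ± 0.44, and Rftn1, a membrane raft protein, fell by 5.42 ± 0.28. Haemoglobin genes were among the largest decreases (Hbb-bs -6.69 ± 1.09, not called when only BALF and the pools were fitted), and their BALF levels differed between mice as given above.

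The pools were then compared directly with the mexAM cultures of single mice, the test of whether the 2 kinds of culture differed in their change from BALF. In all, 74 of 10602 genes (0.698%) were called, 55 higher (0.519%) and 19 lower (0.179%) in the pools. The number ranged from 6 without pool 2 to 123 without pool 1 at passage 8 when single libraries or pools were left out, and was 11 in the earlier and 188 in the later passages. It was 9 without pool 1, 13 without pool 1 at passage 13, 12 without pool 2 at passage 10, 113 without pool 2 at passage 5, and 28 or 48 without mexAM of mouse 1 or 4. Itgam showed the largest difference among the named genes called here (2.71 ± 0.45, adjusted p = 0.012), with 4.10, 4.38 and 5.11 CPM in mexAM, and it was not called without pool 1 at passage 13. Of the 24 mitosis genes 8 were called higher than in mexAM and 0 lower. Mki67 was at 116, 94.4 and 101 CPM in mexAM and 1.28 ± 0.27 higher in the pools (adjusted p = 0.036), though pool 2 at passage 5, at 81.5 CPM, lay below all 3 mexAM libraries. Cenpa, a centromeric histone, was at 23.4, 25.3 and 29.9 CPM in mexAM and 31.6 to 116 CPM in the pools (1.75 ± 0.21, adjusted p = 0.0014). No mitosis gene was called with the earlier passages only or without pool 1 at passage 13, 12 were with the later passages only, and leaving out any one mexAM library left 1 or 2.

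Genes outside the cell cycle differed too. Clic4, an intracellular chloride channel protein, was at 145 to 280 CPM in mexAM, 519 to 754 CPM in the pools and 1193 to 1468 CPM in BALF, so the pools lay between the others (1.65 ± 0.23 against mexAM, adjusted p = 0.0024). Neat1, a nuclear noncoding RNA, was at 92.5 to 133 CPM in mexAM, 22.9 to 55.6 CPM in the pools and 96.1 to 163 CPM in BALF (-1.70 ± 0.28). Hist1h2bc, a histone gene, was at 235 to 338 CPM in mexAM and 55.3 to 96.3 CPM in the pools (-2.05 ± 0.32). These 3 genes were named by a rule that required no overlap between the pools and mexAM.

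Passages were compared within the pools, each pool serving as its own control over 5 passages. A single gene of 10527 tested was called (0.0095%), and it was higher at the later passage (0.0095%), with 0 genes (0%) lower, while 905 genes had an unadjusted p under 0.05. DESeq2 called 31 genes. The called gene was Rgs2, a regulator of G protein signalling, which rose from 362 CPM at passage 8 to 1069 CPM at passage 13 in pool 1 and from 340 CPM at passage 5 to 1287 CPM at passage 10 in pool 2 (1.74 ± 0.28, adjusted p = 0.048). BALF stood between, at 756, 812 and 644 CPM. Its adjusted p was 0.051 when library totals alone set the scale. Mki67 was higher at the later passage in both pools but was not called (1.15 ± 0.37, adjusted p = 0.40), and the summed level of the mitosis list was 1956 and 3286 CPM in pool 1 and 1630 and 3375 CPM in pool 2, against 349 to 722 CPM in BALF. By rank correlation across genes, which are not independent replicates, the later libraries of both pools were closer to each other (0.979) than either was to the earlier passage of its own pool (0.957 in pool 1, 0.95 in pool 2). The later libraries were also the deepest of their pools.

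**Figure D5:**
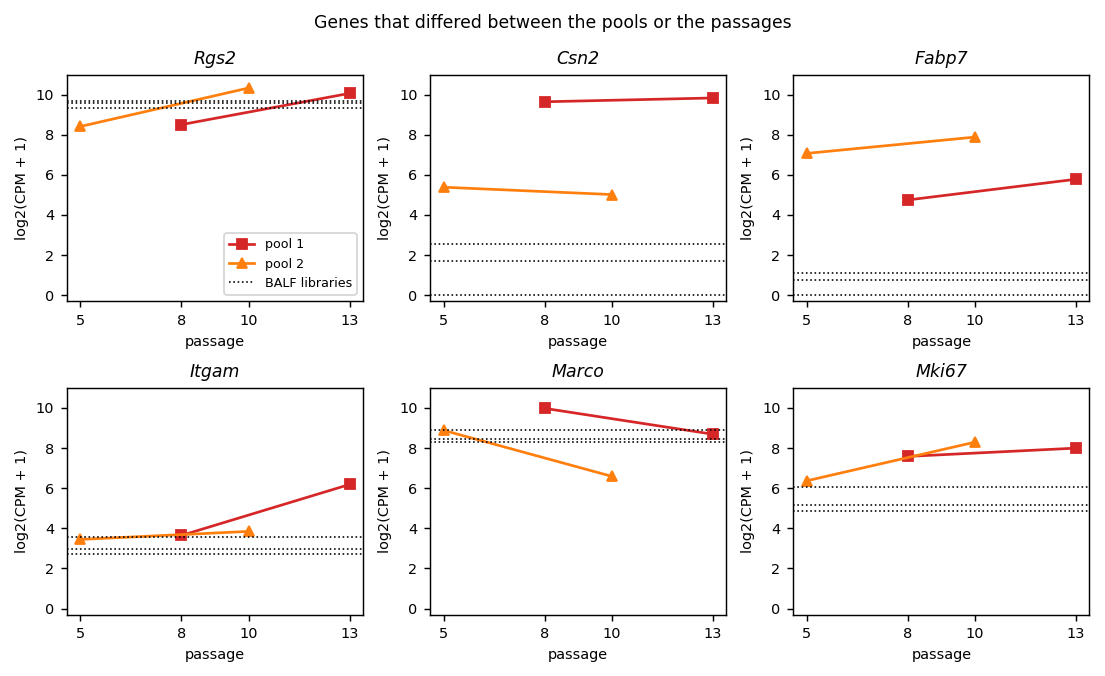
Level as log2(CPM + 1) of 6 genes by passage in pool 1 (red squares) and pool 2 (orange triangles), with the 3 BALF libraries as dotted lines. Rgs2 goes up between passages in both pools, Csn2 and Fabp7 separate the pools, and Itgam is high only in pool 1 at passage 13.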

How the data were processed

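RNA was measured per gene by 3' end sequencing (QuantSeq FWD kit, molecular identifiers added, 65 bp single-end reads), per the labels' protocols. The authors' deposited files hold raw counts per Ensembl gene, 1 file per library, on GRCm38 (mm10) per the submitters' processing notes. The sources used here do not give the aligner, the counting program, strand use or whether identifiers were collapsed, so overlapping and near-identical genes are uncertain. Names came from GENCODE M21 (47224 of 47643 genes). The 5 lines naming no gene were left out, and of these the line for reads outside genes held 10.6% to 29.9% of counted reads.

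The 2 passages of a pool were summed. In edgeR 4.0.16 (R 4.3.3), genes were filtered with filterByExpr, totals were scaled by TMM, and a robust quasi-likelihood fit used 14 columns (BALF, PLF, BMDM and mexAM of 3 each, and 2 pools) with 9 residual degrees of freedom. This shares 1 estimate of the spread per gene, mostly from the groups of 3. Passages were compared in a fit of 16 libraries with a term for each pool. The standard error is the size of the log2 change divided by the root of F. The scripts were tested on simulated data for pools against BALF. There 35% of genes changed 2-fold and 94% of genes changed 4-fold were called, and 8.51% of calls were false. A gene not called may therefore still differ. DESeq2 1.42.0, limma 3.58.1 and other settings were alternatives, and runs without 1 passage of a pool were added after seeing the data.

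Mouse numbers were not used to pair libraries in the main fit. Same-mouse correlations of deviations were -0.110 to 0.191, over 0.1 in 2 of 18, so no clear mouse effect was seen. This check cannot tell whether libraries with the same mouse number share an animal. Pool numbers are not mouse numbers. No 2 libraries held the same counts. The members, the 39 gene lists and the naming rule were chosen with earlier results of these data known. Named genes are a selection of the 12 largest changes in each direction with at least 50 CPM and no overlap, up to 5 called members per list with at least 10 CPM, a panel of macrophage genes, the 8 largest differences from mexAM in each direction, and the 5 largest between passages. The differences from mexAM had the same limits of 50 CPM and no overlap, taken between the pools and mexAM. Other list members were named after their values were seen. Lists are described by counts and medians without a test. Some members of these lists are not reported here.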

Additional observations from a re-analysis of the deposited data

Results flagged for a closer look

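For 16 named genes the change from BALF differed between the pool cultures and the single-mouse cultures. This was tested directly as pools against mexAM in edgeR's quasi-likelihood fit, with 2 pools and 3 mexAM libraries. Of the 16 genes, 10 were higher and 6 lower in the pools. Genes were named in part because they were called in this comparison, so these counts follow in part from the naming rule. Over all genes tested 74 of 10602 (0.698%) were called. Of the genes that act in cell division, the log2 differences were 1.28 for Mki67 (adjusted p = 0.036), 1.37 for Mad2l1 (0.035), 1.37 for Cdk1 (0.043), 1.42 for Anln (0.045), 1.75 for Cenpa (0.0014) and 1.98 for Sgo2a (0.012). The other higher genes were Foxk1 at 1.35 (0.037), Colec12 at 1.36 (0.016), Clic4 at 1.65 (0.0024) and Itgam at 2.71 (0.012). The lower genes were Hist1h2bc at -2.05 (0.0074), Neat1 at -1.70 (0.0087), Gdap10 at -1.37 (0.025), Stk40 at -1.26 (0.025), Gstm1 at -1.03 (0.025) and Letm1 at -0.93 (0.043).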

How the results depend on the processing

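Of 167 named genes called between pools and BALF, 114 were called in every alternative run, 53 lost the call in at least 1, and 0 changed sign. The count of calls was 1403 with BALF of mouse 1 alone (673 higher, 730 lower), and 1604 to 2697 when single libraries or pools were left out (918 to 1419 higher, 679 to 1324 lower). A mouse number as replicate block, which the check of pairing did not bear out, gave 2688 calls there. Pools against mexAM gave 380 calls with all genes (270 higher, 110 lower), 177 with DESeq2 (97 and 80), 19 with limma-trend (9 and 10), 135 with the replicate block (107 and 28), 11 in the earlier passages (6 and 5), 188 in the later (120 and 68), and 6 to 123 in leave-one-out runs (5 to 81 higher, 1 to 44 lower). Later against earlier passages gave 91 calls with all genes, 0 with library totals alone, 31 with DESeq2 and 1 with no replicate block. The cause of these shifts was not tested.

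Sign changes were limited to 7 genes not called between pools and BALF. With library totals alone Adgre1 was 0.034, Ear2 0.11 and Fabp4 0.014, and with limma-trend Marco was -0.13. In the earlier passages Fabp4 was 0.62, Pparg -0.18 and Rgs2 -1.05 (adjusted p = 0.0068), and in the later ones Ear2 was 0.017 and Marco -0.61. With BALF of mouse 1 alone Cx3cr1 was 0.19, Ear2 0.11 and Pparg -0.0704. Leave-one-out ranges were -0.37 to 0.058 for Ear2, -0.47 to 0.53 for Fabp4, -1.09 to 0.81 for Marco, -0.052 to 0.52 for Pparg and -0.34 to 0.59 for Rgs2. With a single pool or BALF library left in a group, its spread is assumed to be that of the other groups. A library of 827791 counts gives 1 count about 1.21 CPM, so genes of a few CPM rest on few counts.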
